A study of Mus musculus with 4 samples.

Results

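The Hox clusters of the mouse genome are 4 tightly packed arrays of homeobox genes, which encode transcription factors that assign position along the body axis. In the list of regions whose H3K9ac differed between HT22 cells in 2 amounts of choline, 51 of 45855 regions fell in the clusters, and their number differed widely from cluster to cluster: 21 lay at Hoxa, 16 at Hoxc, 8 at Hoxd and 6 at Hoxb. The members were chosen by name and place. They are the 39 protein-coding genes whose GENCODE M21 symbol is Hoxa, Hoxb, Hoxc or Hoxd followed by a number, and the deposited regions from the first to the last gene of each cluster with 20 kb on either side.

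HT22 is an immortalised line of mouse hippocampal neuronal cells. The cells, kept in Dulbecco's medium rich in glucose with fetal bovine serum and antibiotics, received choline chloride for 48 h, at 5 µM as the control (CON) or at 70 µM as the supplemented condition (SUP). H3K9ac, acetylation of lysine 9 of histone H3, is a mark of active promoters and enhancers and was mapped by chromatin immunoprecipitation and sequencing. Of the 4 libraries, 2 were input DNA and 2 were H3K9ac, with no label that ties a library to a choline level, and with 2 levels compared this leaves no replicate of either. The list holds only regions assigned to 1 of 2 conditions, and a region with like H3K9ac at both levels is not in it. The region names set 5 before 70, and condition 2 is on that ground taken to be 70 µM. On that reading all 51 Hox regions were assigned to 70 µM, as were 99.2% of the whole list (45495 regions, against 360 at 5 µM), so the direction does not set the Hox regions apart. How deeply the libraries were sequenced is unknown. Intervals below are exact 95% intervals that cover counting error alone, and neighbouring regions are not independent of each other. No test was made, for want of replicate cultures. Of the marker genes of the labelled cell type, 4 of 8 neuronal and 3 of 6 hippocampal and forebrain genes had a region within 1 kb of a start, against 39.5% of all protein-coding genes, with Map2, Snap25, Tubb3 and Camk2a among those without. For other cell types it was 5 of 6 fibroblast, 1 of 3 astrocyte, 1 of 3 microglial and 0 of 3 oligodendrocyte genes, and their part in the Hox results was not tested.

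Hox genes of the same number in different clusters descend from 1 ancestral gene and form a paralog group. Genes run in order from group 1, used in the hindbrain and at the front of the trunk, to group 13, used at the hind end, in the limb tips and in the genital tract. All genes of a cluster point the same way, with group 13 at the upstream end. In the embryo, Polycomb proteins hold the unused part of a cluster silent and Trithorax proteins such as the methyltransferase encoded by Kmt2a keep the used part active. The forebrain, the origin of the hippocampus, largely lacks Hox expression.

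Some of the sequences are shown first, because the regions range from CpG-poor to CpG-rich. Each region has a score in the authors' deposited table, whose scale no header names, and all scores below are those values. The first 4 below are the highest-scoring region of each cluster that touches no untranslated exon. The last, picked after the values were seen, is a CpG-rich region in a coding exon. They are the plus strand of mm10, read from the RefSeq GRCm38.p6 genome, with each CG pair in capitals.
Hoxa, chr6:52235804-52235953, within 1 kb of a start of Hoxa10: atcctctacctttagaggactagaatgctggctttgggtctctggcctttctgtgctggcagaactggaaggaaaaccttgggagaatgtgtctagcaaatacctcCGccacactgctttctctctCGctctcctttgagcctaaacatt
Hoxb, chr11:96336077-96336224, in an intron of Hoxb3: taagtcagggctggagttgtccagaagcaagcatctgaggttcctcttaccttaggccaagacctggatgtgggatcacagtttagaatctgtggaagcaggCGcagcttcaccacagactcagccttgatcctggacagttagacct
Hoxc, chr15:102936057-102936240, upstream of Hoxc12: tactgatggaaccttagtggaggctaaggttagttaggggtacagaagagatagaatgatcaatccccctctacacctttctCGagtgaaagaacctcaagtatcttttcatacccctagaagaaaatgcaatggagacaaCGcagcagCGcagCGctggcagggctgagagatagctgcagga
Hoxd, chr2:74734522-74734696, in an intron of Hoxd3: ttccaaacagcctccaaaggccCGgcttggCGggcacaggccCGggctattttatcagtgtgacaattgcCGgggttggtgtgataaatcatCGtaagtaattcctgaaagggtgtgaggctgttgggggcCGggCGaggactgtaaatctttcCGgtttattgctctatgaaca
Hoxd, chr2:74698128-74698400, in a coding exon of Hoxd9: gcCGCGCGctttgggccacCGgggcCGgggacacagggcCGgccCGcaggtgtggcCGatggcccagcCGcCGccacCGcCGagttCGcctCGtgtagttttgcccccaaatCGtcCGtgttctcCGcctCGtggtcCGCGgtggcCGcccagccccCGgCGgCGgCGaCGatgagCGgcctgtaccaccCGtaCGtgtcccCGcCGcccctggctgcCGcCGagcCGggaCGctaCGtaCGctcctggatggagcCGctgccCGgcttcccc

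The 4 high-scoring regions held 2, 1, 4 and 8 CpG sites in that order, with scores of 8.90, 9.58, 21.3 and 20.4. The coding region of Hoxd9 held 39 CpG sites, was 75.5% G and C and scored 5.17.

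The clusters were first compared in regions per length. Hoxa, on chromosome 6 from 52135590 to 52280880, had 14.5 regions per 100 kb (interval 8.95 to 22.1). Hoxc, on chromosome 15 from 102901103 to 103056852, had 10.3 (5.87 to 16.7). Hoxd, on chromosome 2 from 74648310 to 74785142, had 5.85 (2.52 to 11.5). Hoxb, on chromosome 11 from 96174316 to 96388256, had 2.80 (1.03 to 6.10). The intervals of Hoxa and Hoxb did not overlap, those of Hoxb and Hoxc did so barely, and those of every other pair overlapped. Once regions that scored under the list's median were left out, Hoxc was the densest cluster, at 0.0578 regions per kb (9 regions) against 0.0275 at Hoxa (4 regions). Over all 4 clusters and all scores the density was 7.82 regions per 100 kb (5.83 to 10.3), against 1.68 per 100 kb for the whole list over chromosomes 1 to 19, X and Y.

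The chromosomes themselves differed, and the order changed once each cluster was set against its own. Outside the cluster, chromosome 11 held 3.75 and chromosome 15 held 3.70 regions per 100 kb, whereas chromosomes 6 and 2 held 1.65 and 1.57. Hoxa was 8.79 times as dense as the rest of chromosome 6 (5.44 to 13.4), Hoxd 3.71 times as dense as the rest of chromosome 2 (1.60 to 7.32) and Hoxc 2.78 times as dense as the rest of chromosome 15 (1.59 to 4.51). Hoxb stood at 0.747 times the density of chromosome 11 (0.274 to 1.63), an interval that includes equality. Against only the sequence of chromosome 15 within 20 kb of protein-coding genes, Hoxc came to 1.73 times (0.989 to 2.81), which includes equality too, while Hoxa came to 6.21 (3.84 to 9.49) and Hoxd to 2.66 (1.15 to 5.25) on their chromosomes. At or above the median score, the ratio of Hoxa was 3.10 (0.845 to 7.94) and that of Hoxd 2.79 (0.575 to 8.15), intervals that include equality, and that of Hoxc had a lower bound of 1.37. At the rates of their chromosomes, the spans would hold 2.39 regions at Hoxa, 2.15 at Hoxd, 5.76 at Hoxc and 8.03 at Hoxb. Hoxc, second by count, therefore came after Hoxd when set against its chromosome, although the intervals of Hoxc and Hoxd overlap over most of their length.

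**Figure D1:**
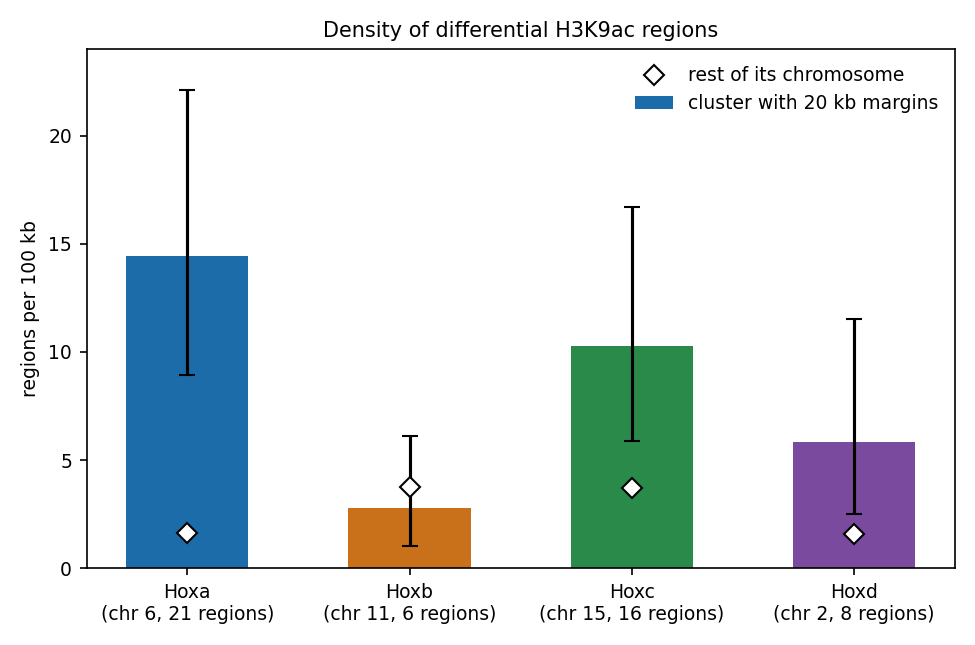
Regions per 100 kb in each Hox cluster with its 20 kb margins (bars, with exact 95% Poisson intervals) and over the rest of the chromosome that carries it (diamonds). Hoxa reaches 14.5 over a chromosome level of 1.65, while the bar of Hoxb, 2.80, lies under the chromosome level of 3.75.

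Windows with genes held more regions than others, and the chromosomes were also cut into consecutive windows of each cluster's length that did not touch the cluster. Of the windows of chromosome 6 with a protein-coding start, 2 of 607 held at least the 21 regions of Hoxa, and the median was 2. On chromosome 2, 86 of 823 such windows (10.4%) held at least the 8 regions of Hoxd, with a median of 2. On chromosome 15, 75 of 352 (21.3%) held at least the 16 of Hoxc, with a median of 6.5. On chromosome 11, 262 of 417 (62.8%) held at least the 6 of Hoxb, with a median of 8. Hoxa thus lay at the upper end of its chromosome's gene-bearing windows, and Hoxb lay below the middle. The windows were not matched to the clusters in number of genes.

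**Figure D2:**
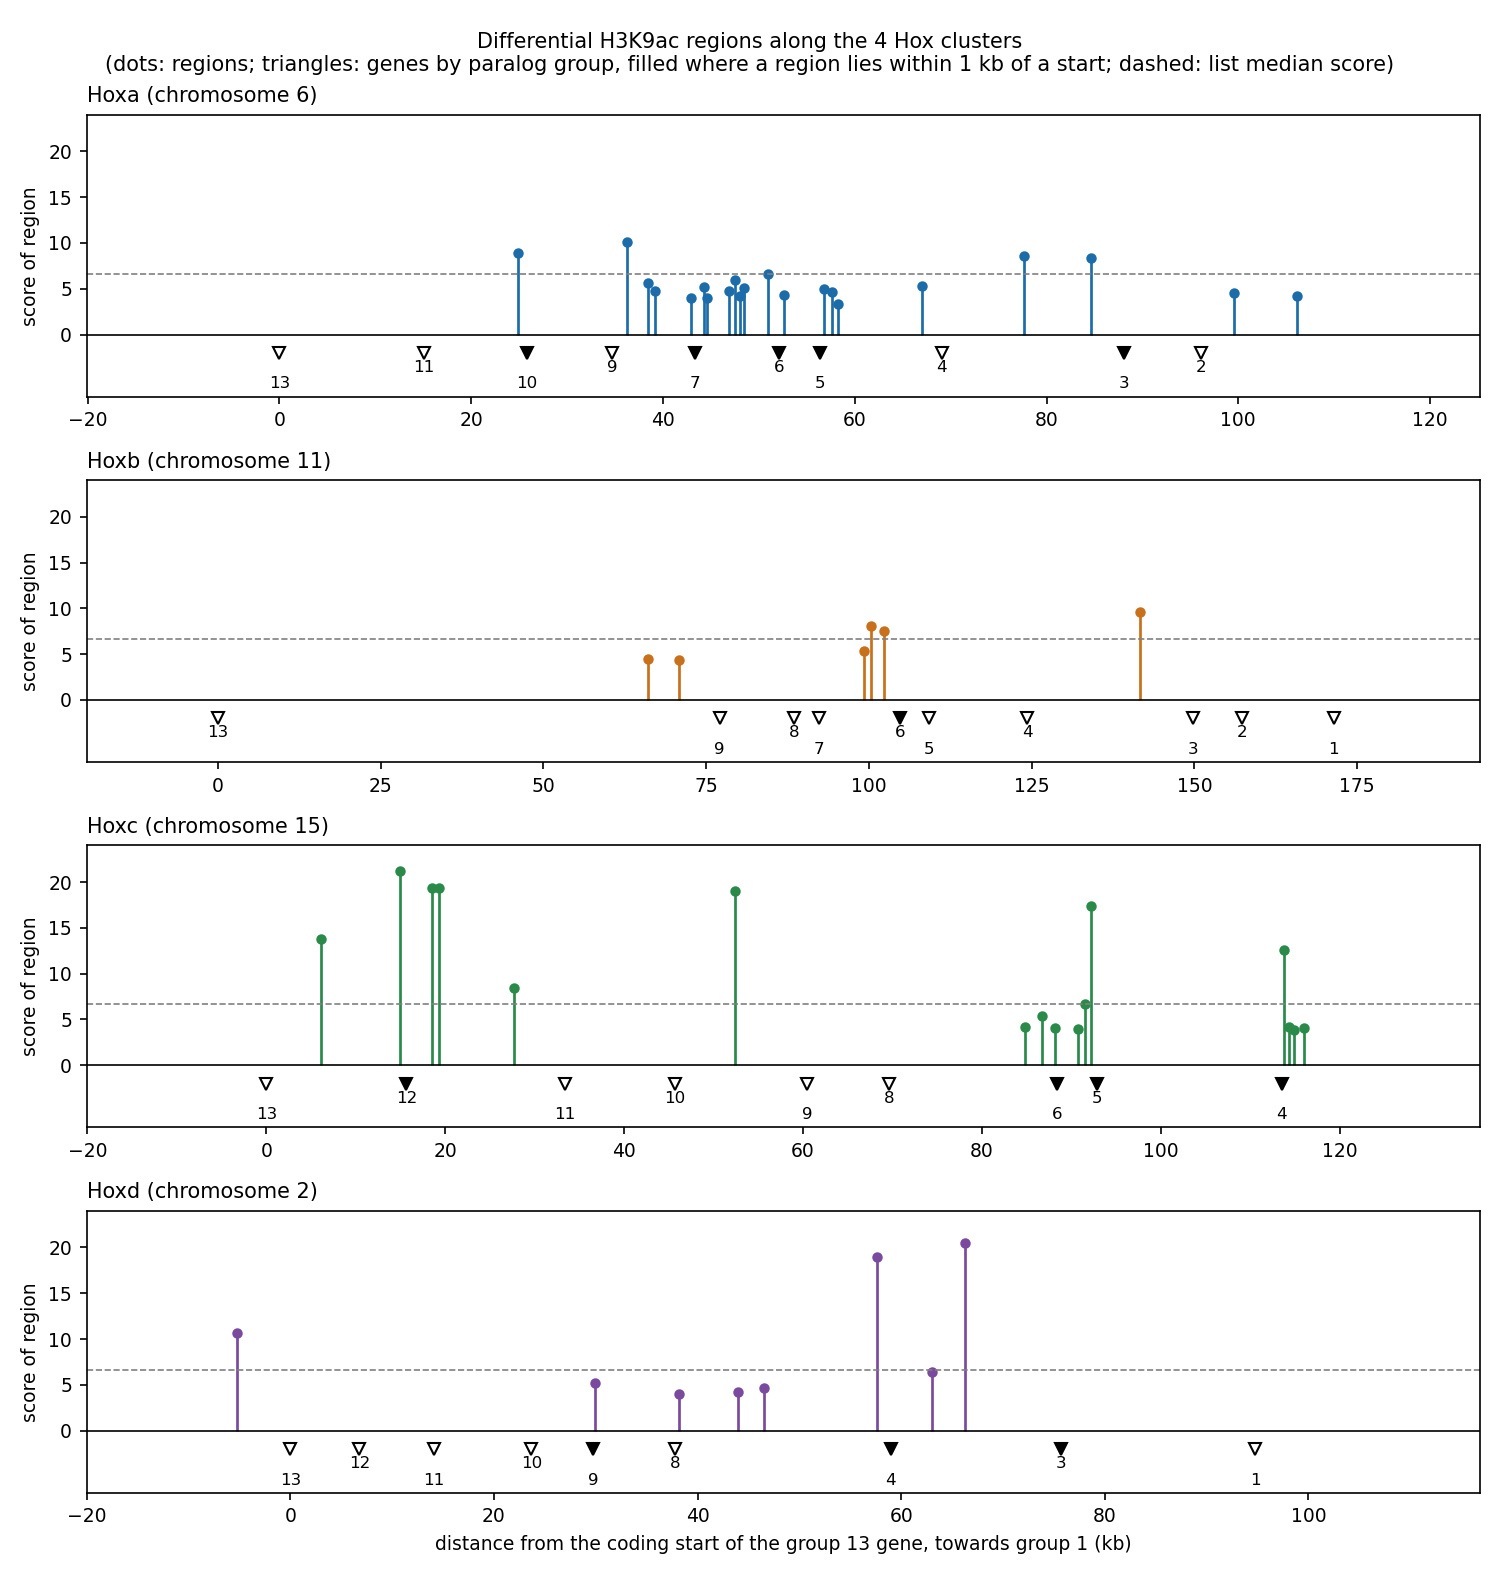
The 51 regions along the 4 clusters. Each stem is a region, its height is the score, and the horizontal axis gives kb from the coding start of the group 13 gene towards group 1. Triangles mark coding starts of Hox genes by paralog group, with 1 gene left out, filled where a region lay within 1 kb of any annotated start of that gene. For Hoxa3, Hoxb6, Hoxd3 and Hoxd4 that start is far upstream of the coding start. Regions crowd around groups 5 to 7 of Hoxa with low scores, and the 7 tallest stems stand between groups 13 and 9 of Hoxc, at Hoxc5 and near group 4 of Hoxd. The dashed line is the median score of the whole list, 6.64.

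Within a cluster, the regions were not spread evenly. From the first to the last region the distance was 71.7 to 110 kb, in spans of 137 to 214 kb. Each region was assigned to the Hox gene with the nearest coding start. The central groups 5 to 8 held 25 of the 51 regions in 110 of 652 kb, or 22.6 per 100 kb (14.6 to 33.4). The anterior groups 1 to 4 had 5.41 (2.88 to 9.25) and the posterior groups 9 to 13 had 4.32 (2.30 to 7.39). With the 20 kb margins left out, the central groups still had 22.6, the anterior 6.86 and the posterior 5.43, and the central interval overlapped neither of the others. Hoxa supplied 13 of the 25 central regions, and 4 of these 13 lay at an upstream start of Hoxa3, an anterior gene. Without Hoxa and the margins, the central groups had 13.8 (7.15 to 24.2), the anterior 5.93 (2.39 to 12.2) and the posterior 4.95 (2.26 to 9.40), and the intervals overlapped. At Hoxc alone without the margins, the anterior part was the densest, at 24.1 against 15.7 in the central part, with wide intervals.

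Paralog group 6 was the only group in which every member had a region nearest to it. It had 4 regions nearest Hoxa6, 3 nearest Hoxb6 and 3 nearest Hoxc6, which with the flanks of these genes made 37.6 regions per 100 kb. Group 7 reached 35.6 per 100 kb through Hoxa7 alone, with 6 regions nearest to it and 0 nearest Hoxb7. The nearest coding start is not always that of the gene whose transcript start a region marks. Among the regions nearest Hoxa6 and Hoxa7, 4 lay at an upstream start of Hoxa3. Also, 1 nearest Hoxd8 lay at starts of Hoxd3 and Hoxd4, 1 nearest Hoxa9 at a start of Hoxa7, and 1 nearest Hoxa4 at another start of Hoxa3. Group 5 had 3 regions nearest Hoxa5, 3 nearest Hoxc5 and 0 nearest Hoxb5. Group 4 had 9 regions, nearest Hoxc4, Hoxd4 and Hoxa4, and 0 nearest Hoxb4. Group 2 had 0 regions, group 1 had 2 over its 3 members, and group 13 had 2 over its 4 members.

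**Figure D3:**
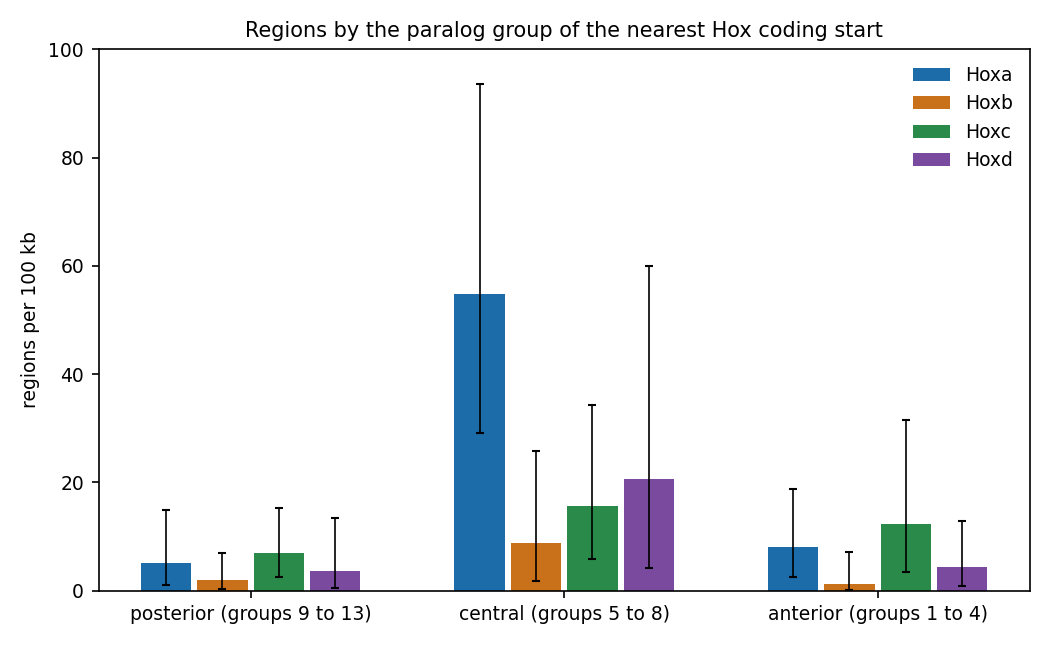
Regions per 100 kb in the posterior, central and anterior part of each cluster, margins included, by the paralog group of the nearest Hox coding start, with exact 95% Poisson intervals. The central part of Hoxa stands at 54.8, and the central bars of the other clusters run from 8.84 at Hoxb to 20.5 at Hoxd.

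Scores varied among the clusters in another order than densities. At Hoxa they ran from 3.38 through a median of 4.93 to 10.1. At Hoxc they ran from 3.82 through a median of 7.54 to 21.3. At Hoxd the lowest, median and highest scores were 3.94, 5.76 and 20.4, and at Hoxb 4.38, 6.44 and 9.58. The median of the whole list was 6.64, with quartiles of 4.52 and 15.0. None of the 21 Hoxa regions and none of the 6 Hoxb regions reached the upper quartile, against 5 of 16 at Hoxc and 2 of 8 at Hoxd. On chromosomes 6, 11, 15 and 2, the shares of all regions that reached it were 27.8%, 23.8%, 24.1% and 26.3%. The densest cluster thus carried regions of low score, and the score ranges of all clusters overlapped. Scores also differed by place. Regions of the whole list within 1 kb of a protein-coding start had a median of 5.00 and those between genes 9.23, and the Hox regions of these kinds had medians of 5.16 and 9.53. In other exons the Hox median was 4.19 against 7.97 in the list, and in introns it was 6.35 against 8.66.

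**Figure D4:**
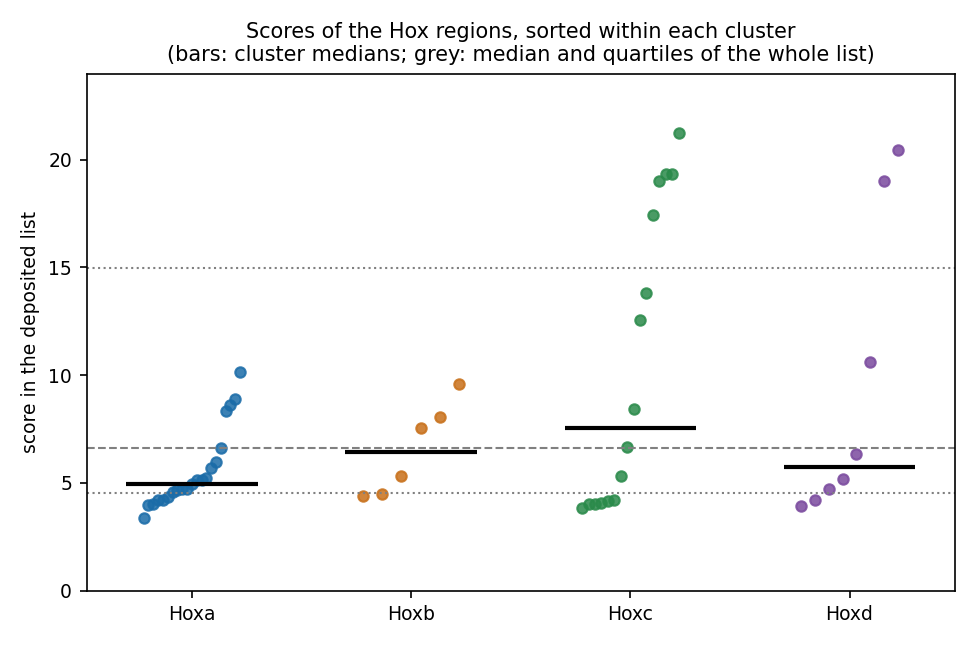
Scores of the 51 Hox regions in the authors' deposited table, sorted within each cluster, with the cluster median as a bar and the median (6.64) and quartiles (4.52 and 15.0) of the whole list in grey. All points of Hoxa and Hoxb lie under the upper quartile, and 5 points of Hoxc and 2 of Hoxd lie above it.

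At Hoxa, 15 of the 21 regions stood within 22.1 kb, from 52202424 to 52224558, a stretch that runs from Hoxa5 over Hoxa6 and Hoxa7 to Hoxa9. Hoxa5, needed for lung and cervical vertebrae, carried 3 regions in its body, with scores of 3.38, 4.66 and 4.93. Hoxa6 carried a region in its coding sequence (4.37), and a further region lay upstream of it (6.61). Between Hoxa6 and Hoxa7, 4 regions followed each other at an upstream start of Hoxa3 with scores of 5.13, 4.20, 5.97 and 4.71. Hoxa7, which patterns thoracic vertebrae, had 4 regions in its body (3.99, 5.15, 4.03 and 4.74), the last of them at an upstream start, and another beside that start (5.68). Of all Hoxa regions, only the one in an exon of Hoxa9, coding in part, from 52224430 to 52224558 passed 10, with 10.1.

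On either side of that stretch the regions thinned out. Towards group 13, Hoxa10, which acts in the uterus and the lumbar spine, had a region of 8.90, and Hoxa11 and Hoxa13 had none nearer than 9766 and 24821 bp to their coding starts. Towards group 1, a region of 5.25 lay between Hoxa5 and Hoxa4, and regions of 8.60 and 8.33 lay between Hoxa4 and the coding start of Hoxa3. These regions between Hoxa5 and Hoxa3 lie within the antisense gene Hoxaas3, which overlaps 12 regions in all, the others in the crowded stretch. A region of 4.59 lay in Hotairm1, a noncoding gene known from myeloid cells, and the outermost region scored 4.23. Without the most crowded 25 kb, Hoxa held 3.03 times the density of chromosome 6, against 8.79 with it.

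At Hoxb, most genes had no region near them. No region was closer than 65918 bp to the coding start of Hoxb13 or 29603 bp to that of Hoxb1. Hoxb6 had 3 regions between its first transcript start and its coding start, with scores of 5.34, 8.05 and 7.54, which also overlap the antisense gene Hoxb5os. A region of 9.58, the highest of the cluster, lay in an intron of Hoxb3, 75 bp from the end of the antisense gene Gm11536. The remaining 2 regions scored 4.49, in the noncoding gene Gm53, and 4.38, at the microRNA gene Mir196a-1. Hoxb13 lies far from the rest of its cluster, and with the span ended at Hoxb9 instead the density came to 1.17 times that of chromosome 11.

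At Hoxc, the posterior and the other regions differed in score. The 6 posterior regions scored 8.44 or more, with a median of 19.2. They were a region of 13.8 in a coding exon of Hoxc13, a gene of hair and nails, one of 21.3 upstream of Hoxc12, a pair of 19.3 each between Hoxc12 and Hotair, one of 8.44 upstream of Hotair and one of 19.0 at Mir196a-2. Hotair encodes a long noncoding RNA transcribed against the direction of the Hox genes. The next 32366 bp, which hold the coding starts of Hoxc9 and Hoxc8, had 0 regions. Around Hoxc6 and Hoxc5, which with their neighbours mark spinal levels of the forelimb, 6 regions stood in 7.51 kb, from 103005982 to 103013487. They scored 4.17, 5.34, 4.03, 4.01 and 6.65, and then 17.4 at the start of Hoxc5. At Hoxc4 the coding region scored 12.5 and the next 3 scored 4.20, 3.82 and 4.07.

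At Hoxd, 8 regions were scattered over 71.7 kb, none of them within 1 kb of the next. A region of 10.6 lay between Evx2, a homeobox gene beside the cluster, and Hoxd13, the gene of digits. Hoxd12, Hoxd11 and Hoxd10 carried none. Hoxd9 had one of 5.17 in a coding exon and Hoxd8 one of 3.94 in its coding sequence. A region of 4.19 lay beside far upstream starts of Hoxd3 and Hoxd4, and one of 4.70 lay downstream of those starts. The high scores were 19.0 in an untranslated exon of Hoxd4, which acts in the hindbrain and neck, and 20.4 in an intron of Hoxd3, with one of 6.35 between them. No region was closer than 28406 bp to the coding start of Hoxd1.

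Starts were considered separately, because H3K9ac is richest there. Of the 39 Hox genes, 13 had a region no further than 1 kb from any of their annotated starts (33.3%, Clopper-Pearson interval 19.1 to 50.2), against a background of 39.5% of 21938 protein-coding genes, so the count lay near the background. By cluster it was 5 of 11 at Hoxa against 37.7% on chromosome 6, 1 of 10 at Hoxb against 49.8% on chromosome 11, 4 of 9 at Hoxc against 56.1% on chromosome 15, and 3 of 9 at Hoxd against 35.5% on chromosome 2. The interval of Hoxb, 0.253% to 44.5%, was the only one that did not include its chromosome's share. The genes were Hoxa3, Hoxa5, Hoxa6, Hoxa7, Hoxa10, Hoxb6, Hoxc4, Hoxc5, Hoxc6, Hoxc12, Hoxd3, Hoxd4 and Hoxd9. Hoxd3 and Hoxd4 owe it to the same region, and Hoxa3 and Hoxb6 to starts upstream of their coding starts. By paralog group, 6 of 11 central, 4 of 12 anterior and 3 of 16 posterior genes had one, with intervals that overlap. With a window of 500 bp, or with only region midpoints counted, Hoxb had 0 genes with a region at a start. With a window of 2500 bp it had 1.

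Among the 26 Hox genes without a region at a start were Hoxa2, Hoxa4, Hoxa9, Hoxa11 and Hoxa13, 9 of the 10 Hoxb genes, Hoxc8, Hoxc9, Hoxc10, Hoxc11 and Hoxc13, and Hoxd1, Hoxd8, Hoxd10, Hoxd11, Hoxd12 and Hoxd13. Hoxa9, Hoxc13 and Hoxd8 had a region in their coding sequence all the same. With only the starts of APPRIS principal transcripts, those annotated as the main product, 12 Hox genes had a region, against 34.4% of all protein-coding genes.

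By place, 20 of the 51 regions lay within 1 kb of a protein-coding start (39.2%, against 29.0% of the list), 8 in other exons (15.7%, against 9.23%), 17 in introns (33.3%, against 37.0%) and 6 between genes (11.8%, against 24.7%). Coding sequence was touched by 9 regions, of Hoxa5, Hoxa6, Hoxa7 (2 regions), Hoxa9, Hoxc4, Hoxc13, Hoxd8 and Hoxd9. The list's own share in coding sequence is not given here, so whether 9 is many cannot be told. Widths had a median of 156 bp, against 170 bp in the list.

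In the 200 bp around their midpoints, the Hox regions had a median of 54% G and C and 4 CpG sites, against 50% and 3 in the whole list. Windows with at least 10 CpG sites made up 23.5% of Hox regions and 11.7% of the list, and windows with 0 CpG sites 13.7% and 12.1%. These shares pool all places, and Hox regions lay more often at starts and in exons. Within 1 kb of a protein-coding start the median CpG count was 6.5 at Hox and 6 in the list. In other exons it was 4 and 3, in introns 2 and 2, and between genes 0.5 and 2. G and C content and motifs were not compared by place. Median CpG counts were 4 at Hoxa, 6 at Hoxb, 2 at Hoxc and 4 at Hoxd. The GC box GGGCGG, searched on both strands, was in 10 of 51 Hox windows (19.6%) and in 9.59% of all windows. TGATNNAT, a pattern bound by Hox proteins together with Pbx proteins, was in 5 of 51 (9.80%) and in 6.39% of all windows. The regions upstream of Hoxc12 and in the intron of Hoxd3, printed above, are among those with TGATNNAT. TGANTCA, the AP-1 pattern, was in 2 of 51 (3.92%), both at Hoxb, and in 5.69% of all windows. These matches describe letters only and show no binding.

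The clusters also hold noncoding genes. Of 20 long noncoding genes in the spans, 4 had a region within 1 kb of a start (Hoxaas3, Gm29430, Gm28793 and Hoxd3os1), against 14.7% of such genes in the whole annotation. The whole genome held 1.68 regions per 100 kb and the spans 7.82, so the 2 shares are not like for like. Hotair, Hottip, Hotairm1, Haglr and Hoxa11os had none at a start. Strand was not part of the measurement, so regions of a Hox gene and of its antisense partner cannot be told apart.

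MicroRNA genes of the clusters stood out when the map was read, and were looked at after their values were seen. MicroRNAs are short RNAs that repress messenger RNAs through the seed, bases 2 to 8, and those of the miR-10 and miR-196 families lie between Hox genes and target several of them. Of 7 miRNA genes in the spans, 3 had a region on them or within 1 kb, against 12.1% of 2202 annotated miRNA genes. That background covers the whole genome, at 1.68 regions per 100 kb, whereas the spans held 7.82 per 100 kb. A region with a score of 4.38 overlapped Mir196a-1. A region of 19.0 lay 50 bp from Mir196a-2, and one of 19.0 lay 59 bp from Mir10b. The score of these last 2 is the commonest exact value of the list, shared by 2552 regions. Mir615, Gm44463, Mir196b and Mir10a lay 1423, 2606, 5523 and 18803 bp from the nearest region. Sequences were found for 6 of the 7 in the RefSeq GRCm38.p6 table, and the mature forms of the miR-196 and miR-10 families follow with the seed in capitals.
mmu-miR-196a-5p: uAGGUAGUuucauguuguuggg
mmu-miR-196b-5p: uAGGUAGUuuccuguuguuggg
mmu-miR-10a-5p: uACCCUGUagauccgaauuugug
mmu-miR-10b-5p: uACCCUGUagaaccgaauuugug
Both genes of miR-196a yield the same mature form, and Mir196b, whose product has the same seed, had no region near it. Likewise Mir10b had a region beside it and Mir10a, with the same seed, had none nearer than 18803 bp.

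Genes that work with or on the Hox genes were counted in the same way, against the background of 39.5%. Of 9 genes for cofactors that bind DNA with Hox proteins, 5 had a region at a start, namely Pbx3 (score 5.56), Pbx2 (4.60), Meis2 (4.19), Pknox2 (3.97) and Meis1 (3.61), and Pbx4, Meis3 and Pknox1 were among those with none. Of 14 regulators of Hox genes, 6 had one. The highest scores were at Rara, a retinoic acid receptor gene (21.4), at Men1, whose product works with the Kmt2a methyltransferase (14.8), and at Ctcf, which encodes an insulator protein (9.59). Rarg (6.36), Egr2 (5.19) and Kmt2a itself (4.42) followed, while the homeobox genes Cdx1, Cdx2, Cdx4, Evx1, Evx2 and Gbx2 and the retinoic acid receptor gene Rarb were among those with none. Of 13 Polycomb genes, 10 had one, among them the methyltransferase gene Ezh2 (16.7), Ring1 (8.12) and Bmi1 (6.06), and Ezh1, Cbx2 and Cbx7 had none. Rara lies on chromosome 11, as Hoxb does, and its region scored higher than any of the 6 at Hoxb. That holds for many regions of this chromosome, of which 23.8% scored 15.0 or more, against a highest score of 9.58 at Hoxb.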

How the data were processed

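H3K9ac ChIP-seq of HT22 cells gave 2 H3K9ac and 2 input libraries. The submitters' processing notes name build mm10 and the tools Bowtie 1.0.0, CASAVA 1.8 and MACS2, the last with no version. Per the series' design text, peaks were called against input and the conditions were compared with bdgdiff. The deposited file is 1 list for the series, which per the file headers holds regions unique to either condition. The score of each region was made by the authors in that comparison and deposited as it stands, with no header that names its scale. The scaling of libraries is not stated. Depth is unknown, so precision comes from counts of regions alone.

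Positions were joined to GENCODE M21 and the RefSeq GRCm38.p6 genome (the same build) with Python 3.11.15, pandas 2.3.3 and pysam 0.24.0, counting any overlap of at least 1 bp and starts within 1000 bp. A gene's place in a cluster is the first coding base of its principal transcript. Coordinates count from 1. Intervals (scipy 1.17.1) are exact Poisson for counts and Clopper-Pearson for shares. In density ratios the chromosome's rate was taken as known. Chromosome windows with over 50% unknown bases were left out. The overlap code was tested on simulated data. All marked Hox genes, the 3 top regions of each cluster and the 3 top genes of each other list were to be named, and further ones were added after their values were seen. Results on a few genes and 1 sequence are not reported here. The members, lists and settings were chosen with earlier results of these data known. Alternatives changed the margin, score range, start window, overlap rule and background.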

Additional observations from a re-analysis of the deposited data

How the results depend on the processing

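Of 74 alternative values for densities, ratios to the chromosome and the count of Hox genes with a region at a start, 68 stayed within the counting interval of the main value or within 1.5 times the main count. Some densities could not move, because all 51 Hox regions belong to the more common condition. The intervals are also wide, as for the ratio of Hoxb (0.274 to 1.63), so staying within them is a weak requirement. With only regions at or above the list's median score, Hoxa fell to 0.0275 regions per kb and 3.10 times its chromosome, Hoxc to 0.0578 and Hoxd to 0.0219 regions per kb, and 5 of 39 Hox genes had a region at a start, against 14.6% of all genes; fewer regions enter by construction. Without its most crowded 25 kb, a setting added after seeing the data, Hoxa came to 3.03 times its chromosome. Other settings gave ratios of 6.21 to 11.5 at Hoxa, 1.73 to 3.50 at Hoxc, 1.70 to 4.59 at Hoxd and 0.423 to 1.17 at Hoxb. The interval of Hoxc also reached equality with regions closer than 1 kb joined, and those of Hoxc and Hoxd without their most crowded 25 kb. In the ratio, Hoxa was highest and Hoxb lowest in all 10 settings run on all clusters, the main one included, but in regions per kb Hoxc passed Hoxa at or above the median score. Hoxd exceeded Hoxc in 8 of them, and Hoxc exceeded Hoxd at or above the median score and without the most crowded 25 kb (2.07 against 1.70). No paired analysis was possible because no column belongs to a single library, and for the same reason no library could be left out. Depth is unknown and limits were not derived from it.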
